A study of Mus musculus with 6 samples.

Results

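The genes described here supply acetyl-CoA and burn fatty acids in mouse muscle stem cells, called satellite cells. The group holds 10 genes chosen by symbol, of 54115 annotated genes with a transcript in the quantification, and all 10 were among the 17152 genes with enough reads to be tested. They are *Acly*, *Acss2* and *Acss1*, which make acetyl-CoA from citrate or acetate, *Cpt1a*, *Cpt1b*, *Slc25a20* and *Cpt2*, which carry long-chain fatty acids into mitochondria, and *Acadvl*, *Acadl* and *Acadm*, which start their breakdown. The rule itself used no expression values, but the members were chosen with earlier results of these data known.

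Acetyl-CoA is the donor that acetyltransferases use to acetylate histones and other proteins, and the cell makes it in the cytosol and nucleus from citrate and acetate and in mitochondria from pyruvate, fatty acids and ketone bodies. Long-chain fatty acids reach the mitochondrial matrix as carnitine esters and are then shortened step by step, each round starting with an acyl-CoA dehydrogenase and ending with acetyl-CoA. Quiescent satellite cells are known to rely on fatty acid oxidation more than activated ones, and PAX7, the transcription factor that marks these cells, is itself acetylated.

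RNA-seq was performed on freshly isolated satellite cells from uninjured hindlimb muscles of C57BL/6J mice, with 3 Pax7WT and 3 Pax7KR libraries, each made from 15 ng of RNA. Pax7KR mice were homozygous for a Cas9-edited *Pax7* allele that puts arginine in place of one acetylated lysine, and Pax7WT mice were wild-type littermates from the same crosses of mice descended from edited founders; neither group was injured or treated. The edit is present in every cell of the animal from the zygote on, so the comparison does not separate effects in satellite cells from effects of other tissues on them, and a base substitution cannot be read from gene-level values. The study's methods describe young adult mice, but the age and sex of each library's donor and the number of founders are not given in the labels used here, and nothing in them says how many animals stand behind a library, so p-values measure the spread between these libraries.

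Libraries held 17822367 to 27908054 estimated reads. The sort kept α7-INTEGRIN+, CD34+ cells and removed CD31-, CD11b-, SCA-1- and CD45-expressing ones. All 12 satellite cell markers were detected, with a summed level of 4206 to 4792 TPM (a level scaled to transcript length and library size) in Pax7WT and 4767 to 4808 in Pax7KR. Of the genes for the removed surface proteins, *Pecam1* and *Ly6a* averaged 16.8 and 18.4 TPM, whereas *Itgam* and *Ptprc* were at 0.316 and 0.235 TPM, and the summed level of all 4 was 26.5 to 42.3 in Pax7WT and 26.4 to 49.5 in Pax7KR. Markers of adipocytes, which store and release fatty acids, summed to at most 0.911 TPM, and 4 of 7 were at 0 in every library. Myofibre markers summed to 163 to 170 TPM in Pax7WT and 150 to 179 in Pax7KR, immune markers to 18.8 to 22.4 and 16.7 to 22.8, and fibro-adipogenic progenitor markers to 615 to 680 and 639 to 739, most of it *Dpt*. Endothelial markers were at 127 to 169 and 144 to 213 TPM (9 of 10 higher in Pax7KR), smooth muscle and pericyte markers at 180 to 229 and 186 to 217 (7 of 7 lower), and erythroid markers at 719 to 1386 and 1264 to 2054 (5 of 5 higher). No gene of these lists passed the adjusted threshold in edgeR, and the part of these cell types in the results below was not tested. In bulk libraries, fewer cells of a type and less RNA per cell cannot be told apart.

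Several members have near relatives, and their sequences set how well reads can be assigned. *Cpt1a* and *Cpt1b* both make the outer-membrane enzyme that couples long-chain fatty acids to carnitine. Their longest shared run of coding sequence was 20 bases, printed in capitals below with 15 bases on either side, so the 2 genes share no stretch as long as the 31 bases that the quantification tool matches by default.
*Cpt1a*: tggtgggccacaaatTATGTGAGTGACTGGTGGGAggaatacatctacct
*Cpt1b*: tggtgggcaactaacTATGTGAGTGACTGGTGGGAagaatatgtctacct

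The acetyl-CoA synthetases *Acss1* (mitochondrial) and *Acss2* (cytosolic and nuclear) shared at most 18 coding bases, in capitals in the same layout.
*Acss1*: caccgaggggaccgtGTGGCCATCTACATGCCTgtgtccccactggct
*Acss2*: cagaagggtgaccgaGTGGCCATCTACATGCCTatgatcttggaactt

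Among the dehydrogenases the longest shared runs were 10 bases for *Acadvl* and *Acadl* and 11 bases for *Acadl* and *Acadm*. Overlap with neighbours was larger. Of the 31-base words of *Cpt1b* transcripts, 81.0% also occur in transcripts of other genes, through *Gm44502*, an annotated read-through on the same strand. For *Acadm* the share was 11.8% (10.9% on the same strand, *Gm5131*), and for *Acss1* 1.54%. *Acadvl* shared 32.3% with *Dvl2* and *Acss2* 8.35% with its neighbours, in both cases from the opposite strand, which a directional library keeps apart if the strand was used in quantification. *Acly*, *Cpt1a*, *Cpt2*, *Acadl* and *Slc25a20* shared none.

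Between genotypes, none of the 10 genes differed after adjustment for all genes tested. With edgeR's quasi-likelihood test and Benjamini-Hochberg adjustment, 0 of 10 members had an adjusted p under 0.1, against a background of 0% of all 17152 genes. DESeq2 called 30 genes, none of them a member. At an unadjusted p under 0.05, 2 of 10 members were lower in Pax7KR, *Cpt2* and *Acadl*, and 0 were higher, while over all genes 4.68% passed (803 genes, 2.43% lower and 2.26% higher). The same pair of genes had groups that did not overlap, where 10.3% of all genes did not overlap (5.19% lower and 5.14% higher). By direction alone, 6 members were lower and 4 higher in Pax7KR, beside 49.0% of all genes higher, and the median log2 fold change was -0.05 over members and -0.0037 over all genes.

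**Figure D1:**
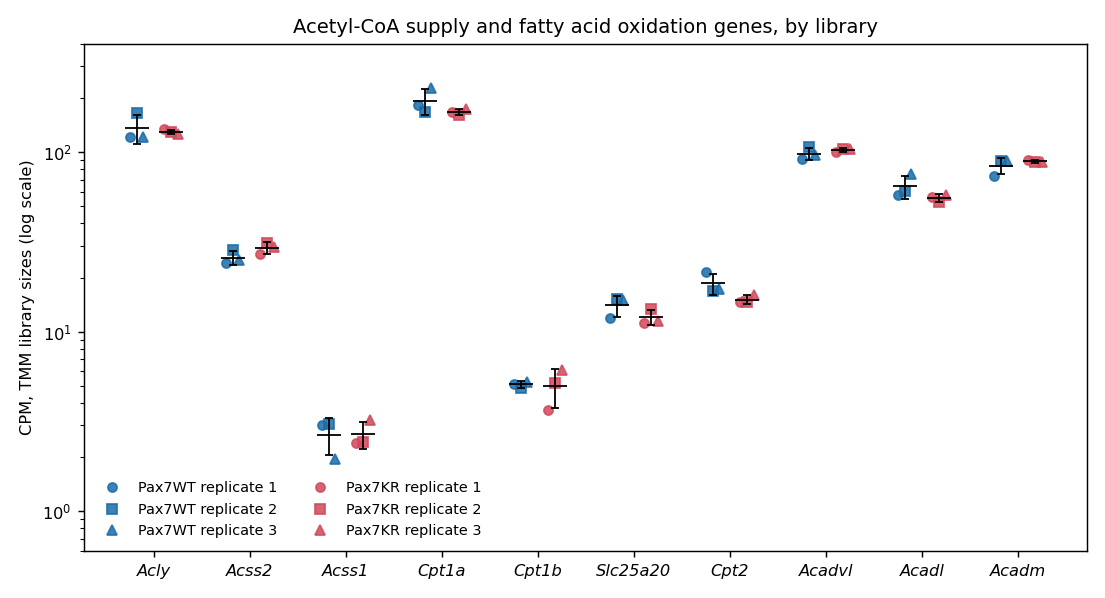
Level of each of the 10 genes in each library, in CPM (reads scaled to TMM-adjusted library size), on a log axis; blue points are Pax7WT and red points Pax7KR libraries, horizontal lines are group means and error bars the SD (n = 3). The groups interleave for every gene except *Cpt2* and *Acadl*, and the Pax7WT points spread more widely than the Pax7KR points for 9 of the 10 genes.

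*Acly* (ENSMUSG00000020917, chr11:100476353-100528000, GRCm38, minus strand) encodes ATP citrate lyase, which splits citrate exported from mitochondria into acetyl-CoA and oxaloacetate. It was at 121, 164 and 121 CPM in Pax7WT replicates 1 to 3 and at 134, 129 and 126 CPM in Pax7KR. The second Pax7WT library was the highest, the other two were the lowest, and all Pax7KR libraries lay between them. On the log2 scale Pax7KR differed from Pax7WT by -0.07 (SE 0.11, 95% interval -0.33 to 0.20, adjusted p = 0.998, edgeR), from 2489 to 3304 reads a library, and it turned to 0.093 without Pax7WT replicate 2.

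*Acss2* (ENSMUSG00000027605, chr2:155517948-155585724, plus strand) makes acetyl-CoA from acetate outside mitochondria, the nucleus included. Levels were 24.0, 28.5 and 25.0 CPM in Pax7WT and 26.9, 31.2 and 29.5 CPM in Pax7KR. The highest Pax7WT library stood above the lowest Pax7KR library, so the groups overlapped. It had the largest upward difference among the members, at 0.18 log2 units (SE 0.10, interval -0.04 to 0.39, adjusted p = 0.992, edgeR), 13.2% higher on the fitted value. With average transcript length in the model it was 0.019.

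*Acss1* (ENSMUSG00000027452, chr2:150618105-150668500, minus strand), the mitochondrial form, was near the lower end of detection with 40 to 82 reads a library. It was at 3.01, 3.05 and 1.95 CPM in Pax7WT and 2.41, 2.43 and 3.22 CPM in Pax7KR. A single library of each group stood apart from the other two, in opposite directions. Its interval was the widest of all members, -0.63 to 0.64 on the log2 scale, so a difference of up to about that size was not detectable at this depth. The sign of its difference turned with transcript length in the model and with 2 of the 6 libraries left out.

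*Acly* carries a cassette exon that its 2 main protein-coding transcripts differ by, shown here because both forms of the protein-coding sequence were well covered in these cells. The exon covers chr11:100503160-100503189 (GRCm38, minus strand), 30 bases or 10 codons, and is in capitals between 20 bases of either flanking exon.
*Acly-203*: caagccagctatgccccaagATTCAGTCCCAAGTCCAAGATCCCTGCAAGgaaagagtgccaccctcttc
*Acly-201*: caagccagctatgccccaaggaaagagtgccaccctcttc

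The coding sequence was 3303 bases with the exon and 3273 bases without it. By the transcripts' TPM, 63.2%, 58.6% and 51.9% of *Acly* coding transcripts held the exon in Pax7WT and 67.7%, 50.3% and 58.2% in Pax7KR. Both forms were in use in every library, and the groups overlapped fully. Mean inclusion was 57.9% ± 5.64 (SD, n = 3) in Pax7WT and 58.7% ± 8.69 (SD, n = 3) in Pax7KR, a difference of 0.866 percentage points (two-sided exact permutation test, p = 1; the smallest p that 3 against 3 allows is 0.1). The shares are the quantification tool's estimates, not counts of reads across the junction.

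Of the carnitine shuttle, 4 of 4 members were lower in Pax7KR on the fitted value, beside 49.0% of all genes higher. The sign of *Cpt1b* turned with transcript length in the model and without Pax7KR replicate 1. Groups did not overlap for 1 of the 4, *Cpt2*, where 5.19% of all genes were lower without overlap. Whether the shuttle differs as a set was not tested. *Cpt1a* (ENSMUSG00000024900, chr19:3322334-3385733, plus strand), the rate-limiting entry enzyme in most tissues, was at 182, 166 and 228 CPM in Pax7WT and 167, 160 and 174 CPM in Pax7KR. Pax7WT replicate 3 was the highest, and Pax7WT replicate 2 fell within the Pax7KR range. Pax7KR differed by -0.20 log2 units (SE 0.10, interval -0.44 to 0.04, adjusted p = 0.992, edgeR), and by -0.061 without Pax7WT replicate 3.

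*Cpt1b* (ENSMUSG00000078937, chr15:89416405-89425863, minus strand), the form that dominates in muscle fibres, was at 5.11, 4.85 and 5.26 CPM in Pax7WT and 3.67, 5.15 and 6.10 CPM in Pax7KR. The Pax7KR libraries held both the lowest and the highest value. The difference was -0.03 log2 units (SE 0.22, interval -0.51 to 0.45, adjusted p = 0.998, edgeR). Reads given to *Cpt1b* and to its read-through were 139 and 36, 86 and 12, and 108 and 60 in Pax7WT, and 84 and 85, 123 and 29, and 129 and 0 in Pax7KR. The sum of both was 6.43, 5.53 and 8.19 CPM in Pax7WT and 7.39, 6.37 and 6.10 CPM in Pax7KR. In the sum Pax7KR replicate 1 moved from the lowest of its group to the highest, so the level of *Cpt1b* alone in that library rests on how shared reads were divided.

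*Slc25a20* (ENSMUSG00000032602, chr9:108662088-108684641, plus strand) encodes the inner-membrane carrier that exchanges acylcarnitine for carnitine. It was at 11.8, 15.2 and 14.9 CPM in Pax7WT and 11.2, 13.4 and 11.5 CPM in Pax7KR. Pax7WT replicate 1 lay among the Pax7KR libraries. The difference was -0.21 log2 units (SE 0.14, interval -0.51 to 0.08, adjusted p = 0.992, edgeR), and -0.33 without Pax7WT replicate 1 (unadjusted p = 0.0354, edgeR).

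*Cpt2* (ENSMUSG00000028607, chr4:107903981-107923610, minus strand) turns acylcarnitine back into acyl-CoA in the matrix. Levels were 21.4, 16.9 and 17.3 CPM in Pax7WT and 14.7, 14.5 and 16.0 CPM in Pax7KR. Every Pax7WT library was above every Pax7KR library, Pax7WT replicate 1 by the most. The log2 fold change was -0.30 (SE 0.12, interval -0.56 to -0.04), the largest difference among the 10 genes, with an unadjusted p of 0.0264 and an adjusted p of 0.992 in edgeR's quasi-likelihood test. It was -0.18 without Pax7WT replicate 1 (unadjusted p = 0.152, edgeR). A retained-intron fragment of the gene took 39.3%, 19.98% and 11.5% of the gene's TPM in Pax7WT and 0%, 19.7% and 0% in Pax7KR, from at most 71.7 reads. The fragment was thus most abundant in the library with the highest *Cpt2*. With protein-coding transcripts alone, an alternative chosen after seeing the data, the log2 fold change was -0.21 (unadjusted p = 0.102, edgeR). With average transcript length in the model it was -0.56 (unadjusted p = 0.00928, adjusted p = 0.961, edgeR).

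The acyl-CoA dehydrogenases, which differ in the chain length they take, were well covered. At the unadjusted threshold 1 of 3 was lower, beside 2.43% of all genes. *Acadvl* (ENSMUSG00000018574, chr11:70010183-70015411, minus strand), for very long chains, was at 91.8, 106 and 95.9 CPM in Pax7WT and 99.9, 104 and 104 CPM in Pax7KR. The Pax7KR libraries all lay inside the Pax7WT range. Its log2 fold change of 0.07 (SE 0.07, interval -0.08 to 0.21, adjusted p = 0.998, edgeR) had the narrowest interval of the members. It was 0.019 without Pax7WT replicate 1 and 0.13 without Pax7WT replicate 2.

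*Acadm* (ENSMUSG00000062908, chr3:153922357-153944632, minus strand), for medium chains, was at 73.9, 89.4 and 89.2 CPM in Pax7WT and 90.7, 87.9 and 87.7 CPM in Pax7KR. Pax7WT replicate 1 was low and the other 5 libraries lay close together. The difference was 0.08 log2 units (SE 0.08, interval -0.09 to 0.25, adjusted p = 0.998, edgeR), and -0.0093 without Pax7WT replicate 1.

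*Acadl* (ENSMUSG00000026003, chr1:66830839-66863277, minus strand), for long chains, was at 57.8, 60.4 and 75.2 CPM in Pax7WT and 56.4, 52.7 and 57.6 CPM in Pax7KR. The groups did not overlap, but Pax7WT replicate 1 and Pax7KR replicate 3 nearly met, and Pax7WT replicate 3 stood above all others. Pax7KR differed by -0.21 log2 units (SE 0.09, interval -0.42 to -0.01, unadjusted p = 0.0431, adjusted p = 0.992, edgeR), 13.8% lower on the fitted value. Without Pax7WT replicate 3 it was -0.09 (unadjusted p = 0.280, edgeR). At an unadjusted p under 0.05, *Cpt2* passed in 12 and *Acadl* in 7 of 16 alternatives, and the number of members that passed ranged from 0, without Pax7KR replicate 1, without Pax7KR replicate 2 or with protein-coding transcripts alone, to 4 without Pax7WT replicate 2.

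**Figure D2:**
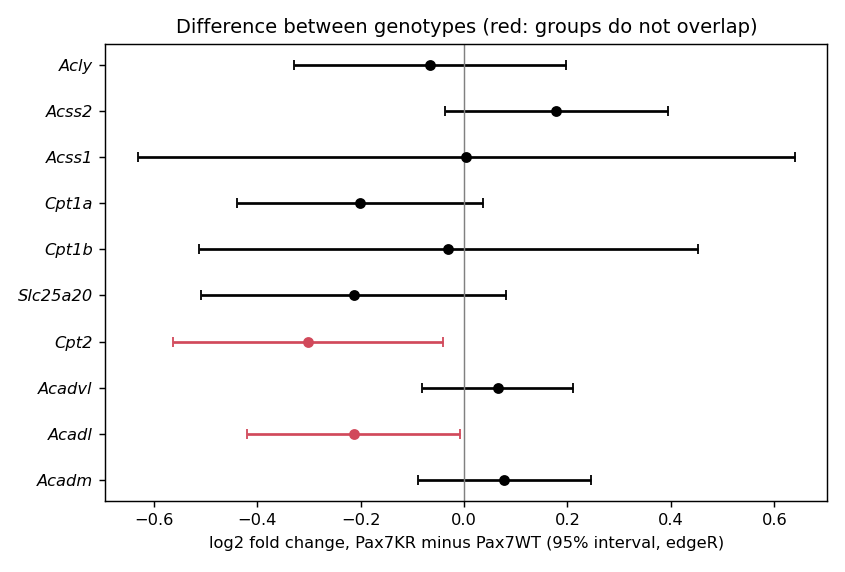
Log2 fold change of each gene, Pax7KR minus Pax7WT, with its 95% interval from edgeR; red marks the genes whose 3 Pax7WT and 3 Pax7KR libraries did not overlap. All intervals lie between -0.63 and 0.64, and those of *Cpt2* and *Acadl* alone leave out 0.

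The intervals bound what these libraries allow. All 10 lay within 1 log2 unit of 0, from -0.63 to 0.64, and the outermost belonged to *Acss1*. Library-to-library spread was smaller in Pax7KR, where the SD was below that of Pax7WT for 9 of 10 members, *Cpt1b* being the exception, beside 57.1% of all genes. The median coefficient of variation over members was 13.4% in Pax7WT and 5.04% in Pax7KR. With 3 libraries a group, this difference in spread was not tested.

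Levels between genes were compared per transcript length, as TPM over all 6 libraries. In that order *Acadm* was first at 135 ± 12.7 TPM (SD, n = 6), then *Acadvl* at 92.3 ± 6.42, *Cpt1a* at 72.4 ± 11.1, *Acly* at 61.6 ± 4.999 and *Acadl* at 56.5 ± 6.26 TPM. A gap followed, with *Acss2* at 20.7 ± 1.53, *Cpt2* at 14.7 ± 4.01, *Slc25a20* at 13.1 ± 1.82, *Cpt1b* at 3.94 ± 0.716 and *Acss1* at 1.36 ± 0.144 TPM. Among all tested genes the members ran from percentile 24.9 for *Acss1* to percentile 94.6 for *Acadm*. Neighbours were compared within libraries by an exact two-sided sign-flip permutation test over 6 libraries, 9 pairs in all, where the smallest raw p is 0.03125. Any pair with the same order in 6 of 6 libraries reaches that p. The pairs and their direction were taken from these same libraries, so the p-values describe how steady each step was and are not independent support for the order. The order held in 6 of 6 libraries for *Acadm* over *Acadvl* (1.46-fold), *Acadl* over *Acss2* (2.71-fold), *Slc25a20* over *Cpt1b* (3.27-fold) and *Cpt1b* over *Acss1* (2.75-fold), each with an adjusted p of 0.0703 in this exact permutation test. *Cpt2* and *Slc25a20* (4 of 6 libraries, exact permutation adjusted p = 0.656) and *Acly* and *Acadl* (5 of 6, adjusted p = 0.211) did not differ beyond their spread. The other 3 neighbour pairs held in 5 of 6 libraries, with an exact permutation adjusted p of 0.0804.

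The first place of *Acadm* depended on which transcripts were summed. Its full-length transcript *Acadm-201* took 43.6% of the gene's TPM and the short retained-intron *Acadm-207* took 22.2%. With protein-coding transcripts alone, *Acadvl* led at 77.5 ± 4.98 TPM (SD, n = 6), followed by *Cpt1a* at 69.2 ± 8.48, *Acadm* at 58.6 ± 5.35, *Acadl* at 56.0 ± 6.31 and *Acly* at 50.8 ± 5.22 TPM, and 6 of 9 neighbour pairs kept their order. The group of 5 at the top and the group of 5 below it were the same either way. For 7 members with at least 2 transcripts in use the share of the main transcript was compared between genotypes, but 3 against 3 libraries cannot go below an exact permutation p of 0.1, so adjustment over 7 members left no room for a call. The full-length *Cpt2* transcript took 60.7%, 71.4% and 88.5% of the gene's TPM in Pax7WT and 92.4%, 80.3% and 100% in Pax7KR (two-sided exact permutation p = 0.2), and the groups overlapped.

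**Figure D3:**
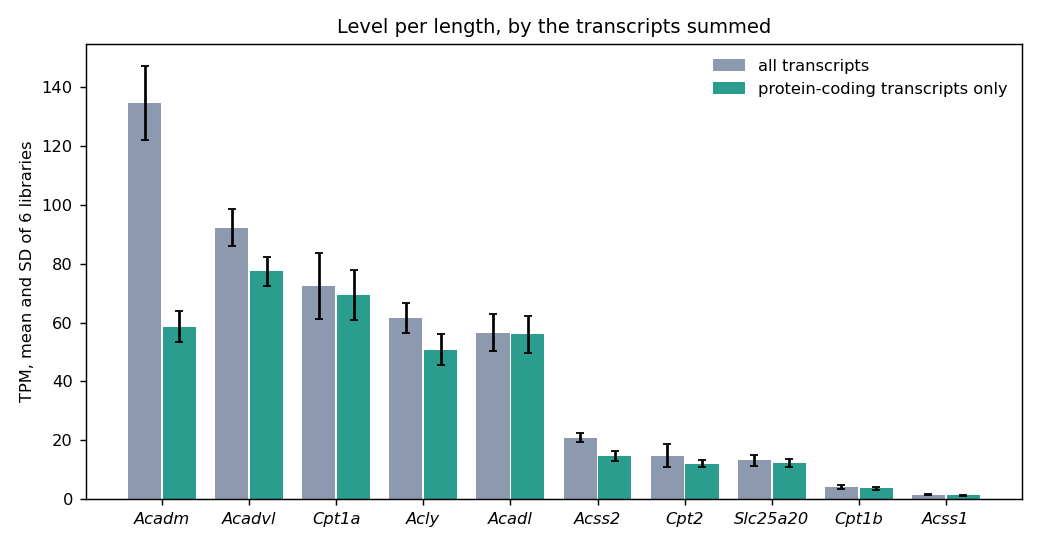
Level per transcript length of each gene in TPM, as the mean of 6 libraries with the SD as error bar, summed over all transcripts (grey) or over protein-coding transcripts only (green). *Acadm* drops from 135 to 58.6 TPM, and the other genes keep most of their level.

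Ratios between genes with the same role were set within each library. *Cpt1a* exceeded *Cpt1b* by 18.4-fold on average (13.5 to 22.7 over the 6 libraries), and the log2 ratio was 4.35 ± 0.203 (SD, n = 3) in Pax7WT and 4.06 ± 0.311 (SD, n = 3) in Pax7KR. *Acss2* exceeded *Acss1* by 15.3-fold (13.02 to 17.99), with log2 ratios of 3.82 ± 0.167 and 4.05 ± 0.165. *Acly* exceeded *Acss2* by 2.97-fold (2.74 to 3.15), with log2 ratios of 1.60 ± 0.0725 and 1.54 ± 0.0799. Differences between genotypes were -0.29, 0.23 and -0.06 log2 units, with exact two-sided permutation p of 0.2, 0.2 and 0.4, adjusted over the 3 ratios to 0.3, 0.3 and 0.4, and 0.1 the smallest possible. With a library left out, *Cpt1a* to *Cpt1b* ran from -0.14 (without Pax7KR replicate 1) to -0.45 (without Pax7KR replicate 2) and *Acly* to *Acss2* from -0.014 (without Pax7KR replicate 3) to -0.098 (without Pax7WT replicate 1). On protein-coding transcripts alone the differences were -0.06, 0.14 and -0.24 log2 units (exact permutation p of 0.7, 0.7 and 0.2). The ratios were then 19.1-fold (16.1 to 21.1), 11.7-fold (8.94 to 16.3) and 3.49-fold (2.85 to 4.46), in the same order. In Pax7WT replicate 3 a processed transcript with 1.69 reads held 40.9% of the TPM of *Acss1*. In Pax7KR replicate 1 a retained-intron transcript with 4.13 reads held 36.6% of that of *Cpt1b*.

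Promoter sequence from RefSeq (GRCm38.p6) was found for 9 of 10 members, all but *Cpt1b*, and the 2 genes with groups that did not overlap are shown. Each run is the 250 bases before the RefSeq start site, on the gene's strand, with every GC box (GGGCGG, or CCGCCC on the other strand), the element bound by SP1-type factors, in capitals. The *Acadl* window is chr1:66863310-66863559 and the *Cpt2* window chr4:107923590-107923839, both on the minus strand. RefSeq starts differ from the GENCODE gene coordinates given above. By those coordinates the *Cpt2* window reaches into the gene and the *Acadl* window lies a short way upstream of it.
*Acadl*: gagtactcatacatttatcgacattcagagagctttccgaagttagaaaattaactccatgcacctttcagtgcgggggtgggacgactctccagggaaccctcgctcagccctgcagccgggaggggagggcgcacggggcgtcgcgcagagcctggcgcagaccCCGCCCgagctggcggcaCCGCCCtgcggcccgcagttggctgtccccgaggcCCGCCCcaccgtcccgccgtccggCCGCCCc
*Cpt2*: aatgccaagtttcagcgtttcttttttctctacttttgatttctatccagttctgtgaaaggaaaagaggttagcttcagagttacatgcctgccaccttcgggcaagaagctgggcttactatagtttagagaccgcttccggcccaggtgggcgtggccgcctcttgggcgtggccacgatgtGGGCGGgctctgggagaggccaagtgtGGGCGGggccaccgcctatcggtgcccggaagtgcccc

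Letter patterns were searched on both strands over the 300 bases around each start. GGGCGG was in 7 of 9 member promoters, where 35.7% of 32851 RefSeq promoters held it. Those promoters belong to 27025 genes, tested here or not, and were not matched to the members by level or base content. AGGTCA, the element that nuclear receptors such as the PPARs bind, was in 4 of 9 (*Acadm*, *Acadvl*, *Acly* and *Cpt1a*), beside 16.3% of all. Its direct repeat with 1 base of spacing was in 0 of 9, beside 0.0396%, and TAATTA, a core that homeodomains such as that of PAX7 bind, was in 0 of 9, beside 5.29%. These are matches of letters in a short window and say nothing of binding.

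The wider pathway was read from 9 lists of 129 genes, of which 121 were tested. None had an adjusted p under 0.1 in edgeR. At an unadjusted p under 0.05, 7 were lower in Pax7KR and 0 higher, 5.79% of those tested, beside 4.68% of all genes (2.43% lower and 2.26% higher). These counts moved with single libraries, to 4 lower and 0 higher without Pax7KR replicate 2, 6 and 3 without Pax7WT replicate 2, 10 and 3 without Pax7WT replicate 3, and 11 and 1 without Pax7KR replicate 3, and to 6 and 2 with a length offset. By direction, 52 were higher and 69 lower, and their median difference was -0.02 log2 units. Groups did not overlap for 12 lower and 1 higher gene, where 5.19% of all genes were lower and 5.14% higher without overlap, the latter being *Pdk1*, a kinase that switches pyruvate dehydrogenase off (27.2 ± 1.58 CPM in Pax7WT and 30.4 ± 1.88 CPM in Pax7KR, SD, n = 3).

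Other sources of acetyl-CoA came first. Of 14 genes of pyruvate dehydrogenase and its regulators, 5 were higher and 9 lower (median -0.05), and 1 passed the unadjusted threshold. This was *Pdhx*, which anchors a subunit of the complex, at 15.7 ± 0.757 CPM in Pax7WT and 12.5 ± 1.53 CPM in Pax7KR (SD, n = 3). The groups were -0.33 log2 units apart (SE 0.12, unadjusted p = 0.0195, adjusted p = 0.992, edgeR), and -0.52 with a length offset (unadjusted p = 0.0203, adjusted p = 0.961, edgeR). The difference was -0.24 without Pax7KR replicate 2 (unadjusted p = 0.0927, edgeR) and -0.29 without Pax7WT replicate 2 (unadjusted p = 0.0586, edgeR). *Pdha1*, a catalytic subunit of the complex, was at 151 ± 6.43 and 141 ± 7.48 CPM. Among 18 genes of acetyl-CoA export and of acetate and ketone body use, 4 were higher and 14 lower (median -0.05). *Idh1*, the cytosolic isocitrate dehydrogenase, differed by -0.24 log2 units (SE 0.11, unadjusted p = 0.0379, adjusted p = 0.992, edgeR) with overlapping groups, and its unadjusted p was above 0.05 without replicate 1 or replicate 2 of either group, and *Slc25a1*, the citrate exporter that feeds *Acly*, -0.23 (SE 0.12, unadjusted p = 0.0668, adjusted p = 0.992, edgeR).

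Genes that spend acetyl-CoA on fatty acids numbered 10, with 5 in each direction (median -0.01). *Elovl6*, a fatty acid elongase, was at 56.3 ± 6.46 CPM in Pax7WT and 48.5 ± 2.39 CPM in Pax7KR (log2 fold change -0.21, SE 0.09, unadjusted p = 0.0266, adjusted p = 0.992, edgeR), and -0.12 without Pax7WT replicate 2 (unadjusted p = 0.148, edgeR). *Fasn*, fatty acid synthase, was at 346 ± 60.9 and 307 ± 16.7 CPM and did not pass.

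Among steps of fatty acid use outside the members, counts by direction were nearly even. Of 19 tested genes of fatty acid uptake, activation and release, 8 were higher and 11 lower (median -0.02), and of 8 for carnitine uptake, synthesis and shuttle, 5 were higher and 3 lower (median 0.04), with none past the unadjusted threshold in either list. *Slc22a5*, the plasma membrane carnitine carrier, was at 55.2 ± 1.49 and 50.9 ± 2.70 CPM. For 17 genes of mitochondrial beta-oxidation the count was 7 higher and 10 lower (median -0.02). *Acad9*, which also helps assemble respiratory complex I, was at 45.6, 49.8 and 47.3 CPM in Pax7WT and 41.2, 41.2 and 41.8 CPM in Pax7KR. All Pax7WT libraries were above all Pax7KR libraries, and the difference was -0.20 log2 units (SE 0.07, unadjusted p = 0.0160, adjusted p = 0.992, edgeR). With a length offset it was -0.053 (unadjusted p = 0.674, edgeR). *Hadha*, of the trifunctional protein that follows the dehydrogenases, was at 122 ± 1.26 and 123 ± 2.58 CPM. Of 12 tested peroxisomal genes, 7 were higher and 5 lower (median 0.01), with none past the threshold. *Abcd2*, a peroxisomal fatty acid transporter near the lower end of detection, was at 0.257, 0.508 and 1.71 CPM in Pax7WT and 0.219, 0.293 and 0.520 CPM in Pax7KR. Pax7WT replicate 3 stood above all others and the groups overlapped, with a difference of -1.24 log2 units (SE 0.74, unadjusted p = 0.117, adjusted p = 0.992, edgeR).

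**Figure D4:**
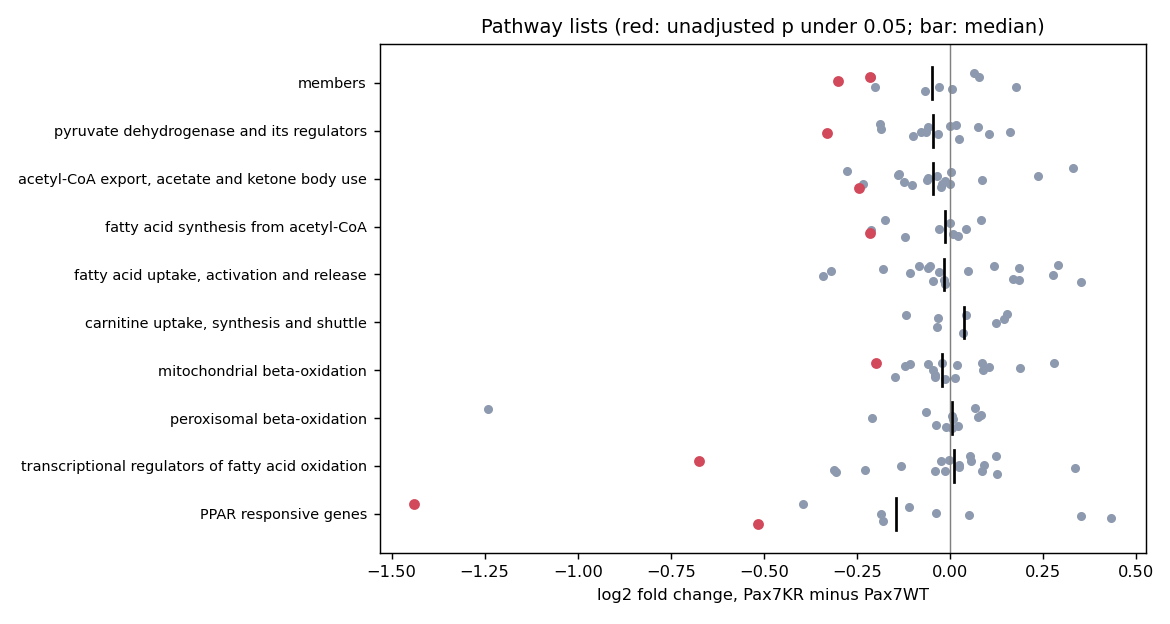
Log2 fold change, Pax7KR minus Pax7WT, of the 10 members and of the tested genes in 9 pathway lists, one point a gene, with the list's median as a black bar; red marks an unadjusted p under 0.05 in edgeR. All red points lie left of 0, and the medians run from -0.15 for PPAR responsive genes to 0.04 for carnitine genes.

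Among pathway genes at an unadjusted p under 0.05, the largest differences were those of *Angptl4*, *Lpin1* and *Txnip*. *Lpin1* was listed among regulators, the others among PPAR responsive genes. The 18 regulators split 9 to 9 (median 0.01), with *Lpin1*, a phosphatidate phosphatase and coactivator, at 20.6, 26.3 and 19.4 CPM in Pax7WT and 12.1, 10.4 and 19.1 CPM in Pax7KR. The third Pax7KR library nearly reached the lowest Pax7WT library. Its log2 fold change was -0.67 (SE 0.24, unadjusted p = 0.0259, adjusted p = 0.992, edgeR), and -0.50 to -0.97 with a Pax7KR library left out. The unadjusted p of *Lpin1* in edgeR was above 0.05 without Pax7WT replicate 1, Pax7WT replicate 2 or Pax7KR replicate 1. The same held with a length offset and with replicate number in the model. Of 10 tested genes on the PPAR list, 3 were higher and 7 lower (median -0.15), and 2 passed the unadjusted threshold. *Plin2* was at -0.18 and *Fabp4* at 0.35 log2 units, and neither passed. Whether PPAR receptors act on the list in these cells was not tested. *Angptl4*, a secreted inhibitor of lipoprotein lipase, was at 22.2, 52.4 and 30.7 CPM in Pax7WT and 8.22, 16.5 and 13.9 CPM in Pax7KR. The groups did not overlap and lay -1.44 log2 units apart (SE 0.46, unadjusted p = 0.0303, adjusted p = 0.992, edgeR), with unadjusted p above 0.05 in edgeR without Pax7WT replicate 3, Pax7KR replicate 1 or Pax7KR replicate 3. *Txnip*, an inhibitor of glucose uptake and thioredoxin, was at 970, 1191 and 1236 CPM in Pax7WT and 716, 764 and 897 CPM in Pax7KR. Here too every Pax7WT library was above every Pax7KR library, and the difference was -0.52 log2 units (SE 0.11, unadjusted p = 0.000722, adjusted p = 0.652, edgeR). The call for *Txnip* depended on the tool, the filter, the model and the libraries. Its adjusted p was 0.00242 in DESeq2. In edgeR it was 9.32e-10 without the filter on low reads, 0.0515 with replicate number in the model and 0.0808 without Pax7KR replicate 3. The highest over all alternatives was 0.9999, in edgeR without Pax7KR replicate 2, where the log2 fold change was -0.49 (unadjusted p = 0.00352, edgeR). Over the alternatives the log2 fold change of *Txnip* ran from -0.62 (without Pax7WT replicate 1) to -0.45 (without Pax7KR replicate 1). Its highest unadjusted p was 0.0138, in edgeR without Pax7WT replicate 2. *Pdk4*, the pyruvate dehydrogenase kinase that rises with fatty acid use, was at 106 ± 12.9 and 93.0 ± 10.2 CPM (SD, n = 3; log2 fold change -0.19, adjusted p = 0.992, edgeR).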

How the data were processed

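RNA from sorted satellite cells was sequenced from directional, paired-end libraries. The authors quantified reads with Salmon 1.3.0 on the GENCODE vM25 mouse transcriptome with genome decoys (GRCm38) and deposited, per library and transcript, estimated counts of reads and TPM, and fitted them with tximport and DESeq2 1.28.1. A deposited series table holds their comparison and means over libraries and was not used. Estimated counts were summed by gene through GENCODE vM21, which held 139791 of 140992 transcripts; the rest carried 0.606% of reads. Sums were rounded, genes with at least 5 reads in at least 2 libraries were kept (17152), and Pax7KR was compared with Pax7WT by edgeR 4.0.16 (TMM, robust quasi-likelihood, R 4.3.3) at an adjusted p under 0.1, the study's threshold. The fit was tested on simulated data. Levels per length were sums of the deposited TPM values; single values used exact permutation tests (scipy 1.17.1). DESeq2 1.42.0, other scalings, filters, length offsets, a replicate block and leaving out libraries were alternatives.

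Named were all members and, per pathway list, genes called, up to 3 with the smallest p and the 2 with the highest TPM. Members and lists were chosen with earlier results of these data known. Depth was 17822367 to 27908054 reads, and biological variation between libraries of a group was 13.8% (edgeR's common value). Pairs of libraries differed by more than sampling noise. Motif shares and promoters came from RefSeq (GRCm38.p6).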

Additional observations from a re-analysis of the deposited data

How the results depend on the processing

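No member was called under any of 16 alternatives, and 6 of 10 kept their direction throughout. Over all genes edgeR called 0, against 30 with DESeq2, 45 with DESeq2 and a length offset, 157 without the filter on low reads, 13 with a replicate block, and 1 to 32 when a library was left out (32 without Pax7KR replicate 3). The median member log2 fold change of -0.05 became -0.11 with a length offset in edgeR or DESeq2 and ranged from -0.16 (without Pax7KR replicate 3) to 0.016 (without Pax7WT replicate 2). Direction turned for *Acss1* (-0.19 with a length offset in edgeR and DESeq2, -0.18 without Pax7WT replicate 3, -0.14 without Pax7KR replicate 3), *Cpt1b* (0.092 and 0.089 with a length offset in edgeR and DESeq2, 0.15 without Pax7KR replicate 1), *Acly* (0.093 without Pax7WT replicate 2) and *Acadm* (-0.0093 without Pax7WT replicate 1). Over the libraries left out these 4 genes ranged from -0.18 to 0.11, -0.20 to 0.15, -0.14 to 0.093 and -0.0093 to 0.12, in that order. The cause was not tested.

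In the replicate block *Cpt2* was -0.29 and *Acadl* -0.21. Deviations of same-numbered libraries correlated at 0.00113, 0.0567 and -0.0615, and those of differently numbered ones at -0.0998 to 0.0968. The labels do not say whether the numbers pair the samples, and these correlations cannot decide it with 3 libraries a group. Of pathway genes, *Txnip* was called with DESeq2 (both fits), without the filter, in the block and without Pax7KR replicate 3, *Lpin1* without the filter and without Pax7KR replicate 3, *Acsl3* without Pax7KR replicate 3 and *Angptl4* in the block. *Acss1* (40 to 82 reads) and *Cpt1b* (84 to 139 reads) are limited by depth.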
